A study of Homo sapiens with 2 samples.

Results

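The 10 protein-coding genes of the HOXB cluster (HOXB1, HOXB2, HOXB3, HOXB4, HOXB5, HOXB6, HOXB7, HOXB8, HOXB9 and HOXB13) lie on the minus strand of chromosome 17. They were taken by position, as the CpG dinucleotides within 2 kb of each transcription start site (TSS) and inside each gene, with the 210 kb interval chr17:46600000-46810000 (GRCh37) as their surroundings. They are 10 of 20163 annotated protein-coding genes, and their windows hold 3302 of the 28217448 CpG dinucleotides listed for both libraries. Whole-genome bisulfite sequencing had been used to compare the DNA methylome of a DNMT3A mutant acute myeloid leukemia (AML) line with that of a DNMT3A wild-type AML line. DNMT3A is a de novo DNA methyltransferase, and bisulfite turns unmethylated cytosine, but not methylated cytosine, into a base read as T.

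OCI-AML3 carries a heterozygous missense DNMT3A mutation in the catalytic domain, and the wild-type line is AML5, which the sample label calls OCI-AML5. Both are established myeloid leukemia lines grown in DMEM with serum, and each gave 1 library of genomic DNA mixed with unmethylated lambda DNA. DNMT3A genotype and cell line therefore cannot be told apart, and every test below compares 2 libraries and covers read sampling only. The files hold no transcript levels, so the lineage of the lines was not checked on marker genes. Across the genome the libraries held 902802339 calls for OCI-AML3 and 894828667 for AML5, with a median of 27 and 30 calls per CpG. Inside the HOXB interval the mean was 41.0 calls per CpG for OCI-AML3 and 30.7 for AML5, a ratio of 1.33, against 1.24 on chromosome 17 and 1.01 over the autosomes. The part of this depth difference in the results below was not tested.

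HOX genes encode homeodomain transcription factors that give cells their position along the head-to-tail axis of the embryo. Their order on the chromosome follows the order in which they are used: anterior genes (HOXB1 to HOXB3) lie at the 3′ end of the cluster, central genes (HOXB4 to HOXB8) follow, and posterior genes (HOXB9 and HOXB13) lie at the 5′ end. In blood, HOXB genes are used mainly in stem and progenitor cells, and HOXB4 is known for expanding hematopoietic stem cells. CpG methylation at a start site generally goes with a silent gene, while CpG islands, stretches rich in CpG dinucleotides, are often unmethylated.

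The sequences below show CpG dinucleotides in capitals. The first is a stretch of 300 bases within the bin of 1 kb whose level was most increased in OCI-AML3. The second holds the bases upstream of HOXB8, the member with the smallest absolute promoter difference. The first, chr17:46722701-46723000 on the plus strand, lies between HOXB9 and HOXB13. Of its 6 CpG dinucleotides, 4 had enough calls, and their methylated share was 72.0% (Wilson 95% interval 65.3 to 77.9) of 193 calls in OCI-AML3 and 31.9% (25.3 to 39.4) of 166 calls in AML5. Of these 4, 1 was lower in OCI-AML3. Over the whole bin, 75.6% of 332 calls in OCI-AML3 and 28.9% of 287 calls in AML5 were methylated. The second, chr17:46692655-46692904, is given on the minus strand, 5′ to 3′, so that the line ends toward HOXB8. It holds 8 CpG dinucleotides, of which 7 had enough calls, with 0.769% methylated calls (0.136 to 4.23) in OCI-AML3 and 18.0% (12.2 to 25.8) in AML5. The stretch near HOXB8 was thus low in both lines, while the one beyond HOXB9 was mostly methylated in OCI-AML3. CG was the only motif searched, and 65.4% of the 20163 protein-coding starts have at least the 8 CpG dinucleotides of HOXB8 in the same 250 bases, where the median is 14.
HOXB9 to HOXB13, largest increase: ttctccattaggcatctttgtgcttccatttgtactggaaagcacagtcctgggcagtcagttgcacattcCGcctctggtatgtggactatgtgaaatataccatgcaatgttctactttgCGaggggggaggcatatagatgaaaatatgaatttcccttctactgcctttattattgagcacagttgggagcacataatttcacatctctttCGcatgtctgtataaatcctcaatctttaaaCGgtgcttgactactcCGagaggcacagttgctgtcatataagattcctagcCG
HOXB8 upstream: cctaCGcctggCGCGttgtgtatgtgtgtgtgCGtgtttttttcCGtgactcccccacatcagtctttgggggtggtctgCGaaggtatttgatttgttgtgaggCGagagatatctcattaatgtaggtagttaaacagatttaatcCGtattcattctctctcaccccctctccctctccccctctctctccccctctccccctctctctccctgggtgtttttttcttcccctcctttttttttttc

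The HOXB interval was hypomethylated in the DNMT3A mutant cells. A level is here the mean, over CpG dinucleotides with more than 5 calls in both lines, of the methylated share of calls, and a difference is OCI-AML3 minus AML5 in percentage points. Over 4705 CpG dinucleotides the level went from 58.8% in AML5 down to 41.6% in OCI-AML3, a difference of −17.2, against −7.75 over the autosomes and −7.64 on chromosome 17. An equally long flank before the interval had a difference of −17.5, from 85.1% in AML5 to 67.6% in OCI-AML3, and the flank after it had −2.90. In the promoters and gene bodies of the 10 genes together, 1218 of 3100 tested CpG dinucleotides (39.3%) were lower in OCI-AML3 and 196 (6.32%) were higher by Fisher's exact test on the calls of both libraries with Benjamini-Hochberg adjusted p below 0.05. Across the genome the same test called 14.7% lower and 3.86% higher. A change from above 80% in AML5 to below 20% in OCI-AML3 was met by 547 of the 3100 (17.6%), against 2.6% of all tested CpG dinucleotides, and the opposite change by 18, against 0.499%. The plot along the cluster shows where these lie.

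**Figure D1:**
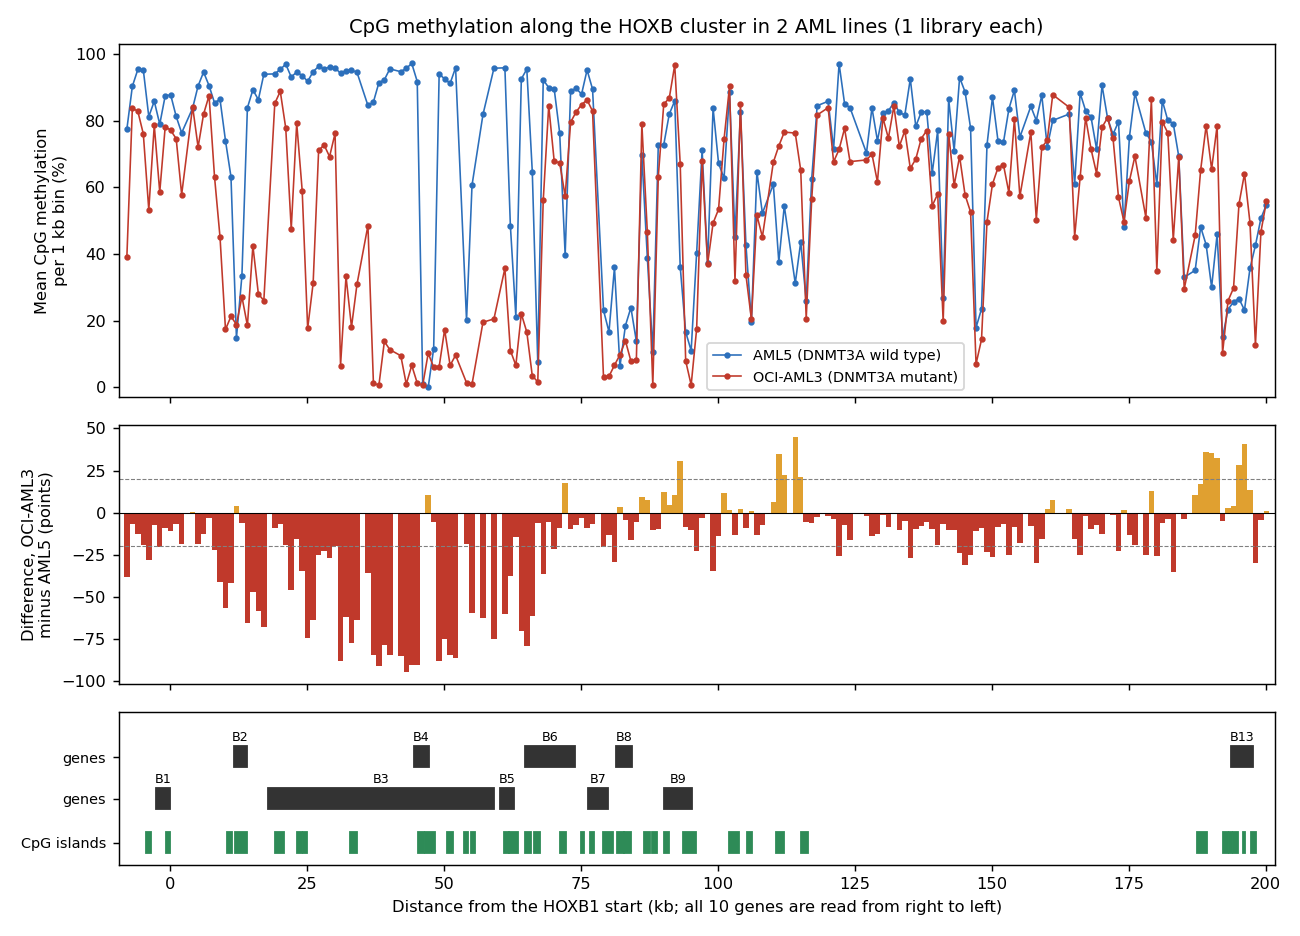
Mean CpG methylation (%) per 1 kb bin in OCI-AML3 (red) and AML5 (blue), the difference in points (middle; dashed lines at 20 points either way), and the canonical genes (black) and CpG islands (green) against the distance from the HOXB1 start in kb. Points are bins with at least 5 CpG dinucleotides, 1 library per line, and the lines only join them. The largest decreases, with AML5 above 91% and OCI-AML3 below 7%, stand in HOXB3 around the HOXB4 start, 2 of them reaching into the HOXB4 gene, while the increases past 20 points stand from HOXB9 to HOXB13.

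Of the 10 promoters, windows of 2 kb on either side of the outermost annotated start, 9 had a lower level in OCI-AML3, as did 16661 of the 19667 protein-coding promoters measured. The median difference was −6.83 points, against −4.68 over all of these. The windows of HOXB3 and HOXB6 share nearly all of their CpG dinucleotides, so their values are not independent in this count and median. A difference of at least 20 points was reached by 1 of 10, HOXB5, in the lower direction and by none in the higher direction, against 8.61% and 1.79% of all promoters. Among the single CpG dinucleotides of these windows, 368 of 1311 (28.1%) were lower and 107 (8.16%) higher, against 14.7% and 3.86% across the genome. These genome shares also apply to the counts of single members below. The promoter levels of the members thus ranged from 7.01% (HOXB4) to 80.8% (HOXB3) in OCI-AML3 and from 13.9% (HOXB4) to 87.2% (HOXB3) in AML5.

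Among the anterior genes, HOXB1, a hindbrain patterning factor, was methylated in both lines. Its promoter (chr17:46606373-46610373) had 77.1% in OCI-AML3 and 87.1% in AML5, and 16 of 84 CpG dinucleotides were lower. HOXB2, which acts with HOXB1 in the hindbrain, had 22.4% and 38.9% over 145 CpG dinucleotides (chr17:46620471-46624471), of which 48 were lower and 11 higher. The size of that difference depended on the side of the start. In the 2 kb upstream the levels were 28.8% and 88.0%, and within 500 bases of the start they were 18.1% and 82.7%, with 27 of 30 CpG dinucleotides lower. The HOXB2 intron had 17.5% and 19.2%, and beyond the first 2 kb of the gene the levels parted again, with 20.8% and 59.7% and 62 of 86 CpG dinucleotides lower.

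HOXB3, a gene with many annotated starts that is used in hematopoietic progenitors, gave the largest promoter contrast only when its canonical start was used. Around its outermost start, which is close to that of HOXB6, the levels were 80.8% and 87.2%. Around its canonical start (chr17:46665603-46669603) they were 25.9% (OCI-AML3) and 96.4% (AML5). This difference of −70.4 points came with 42 of 46 CpG dinucleotides lower and none higher. The Wilson 95% intervals of the shares of calls, 22.1 to 26.6% and 94.9 to 97.1%, were far apart, and the mean depths were 23.4 and 20.9 calls. A HOXB3 start inside the cluster at position 46651385 had 0.870% and 96.1% within 500 bases, and all 31 tested CpG dinucleotides there were lower. The start at 46659984 had 6.10% and 91.2%, with 61 of 62 lower. The start at 46656719, beside HOXB4, differed less, with 2.27% and 17.3%. At these 3 starts OCI-AML3 was low throughout, whereas the DNMT3A wild-type line was almost fully methylated at the first 2 and mostly unmethylated at the third. At 2 more starts, 46631284 and 46633883, OCI-AML3 was not as low, with 46.9% and 29.2% against 89.7% and 93.9% in AML5.

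Among the central genes, HOXB4 had low levels at its start in both lines. Its promoter (chr17:46653712-46657712) had 7.01% and 13.9%, but within 500 bases of the start the level was 12.5% for OCI-AML3 and 0.0521% for AML5, and 10 of 80 CpG dinucleotides were higher and none lower. HOXB4 was thus slightly more methylated in the DNMT3A mutant cells at its start and less methylated at the edges of its window. HOXB5, a homeodomain factor expressed in long-term hematopoietic stem cells, had 17.3% (OCI-AML3) and 61.2% (AML5) in chr17:46669141-46673141, a difference of −43.9 points, with 132 of 184 CpG dinucleotides lower and 1 higher. Wilson 95% intervals of the shares of calls were 16.3 to 17.8% and 55.5 to 58.0%, and the mean depths 54.7 and 30.02 calls. At the start itself the lines were closer, with 5.05% and 16.8% within 500 bases, so that most of the difference lay on either side of an unmethylated centre.

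HOXB6, known from erythroid progenitors, and HOXB7 differed at their starts. The HOXB6 promoter was methylated in both lines, with 80.4% and 87.1%. HOXB7 had 58.1% and 63.6% around its outermost start, and 4.15% and 22.5% around its canonical start (chr17:46686379-46690379), where 64 of 171 CpG dinucleotides were lower and none higher. HOXB8, whose enforced expression holds myeloid progenitors undifferentiated, had 15.2% and 20.4%. Of its 149 CpG dinucleotides, 22 (14.8%) were lower, near the genome share of 14.7%, and 17 (11.4%) were higher, against 3.86%. The window of the canonical start of HOXB7 and the window of HOXB8 were thus below 20% in OCI-AML3 and slightly above it in AML5. Within 500 bases of these canonical starts both lines were below 20%. The levels there were 3.73% and 16.0% at HOXB7, and 6.18% and 15.4% at HOXB8.

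HOXB9 and HOXB13, the posterior genes, differed in direction over the whole window but not near the start. HOXB9 had 12.3% and 22.4% (chr17:46701720-46705720), with 57 CpG dinucleotides lower and 13 higher of 209, and within 500 bases of its start 0.833% and 12.5%. HOXB13, known for its part in prostate and the tail end of the embryo, was the only member with a higher promoter level in OCI-AML3, 42.3% against 35.5% (chr17:46804112-46808112), with 37 CpG dinucleotides higher and 21 lower of 114. Upstream of its start the direction was the opposite: 25.1% in OCI-AML3 and 44.3% in AML5, against 50.2% and 31.5% in the 2 kb downstream. Within 500 bases of its start HOXB13 had 24.8% and 33.3%. The plot of single CpG dinucleotides around the starts shows both sides of this window.

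**Figure D2:**
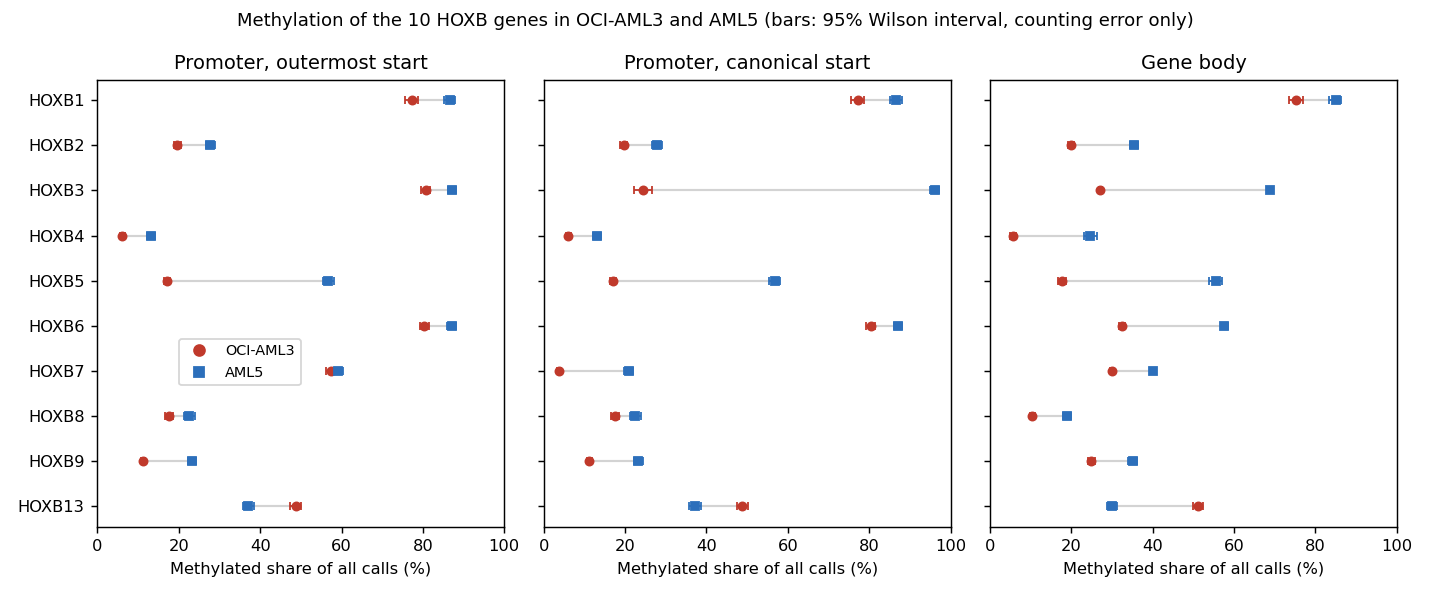
Methylated share of all calls (%) for the 10 HOXB genes in OCI-AML3 (red circles) and AML5 (blue squares), in the promoter of the outermost start, the promoter of the canonical start and the gene body. Bars are Wilson 95% intervals for counting error only. HOXB5 stands apart in all 3 panels, HOXB3 at its canonical start and in its body, and HOXB13 is the only gene with the red point to the right.

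**Figure D3:**
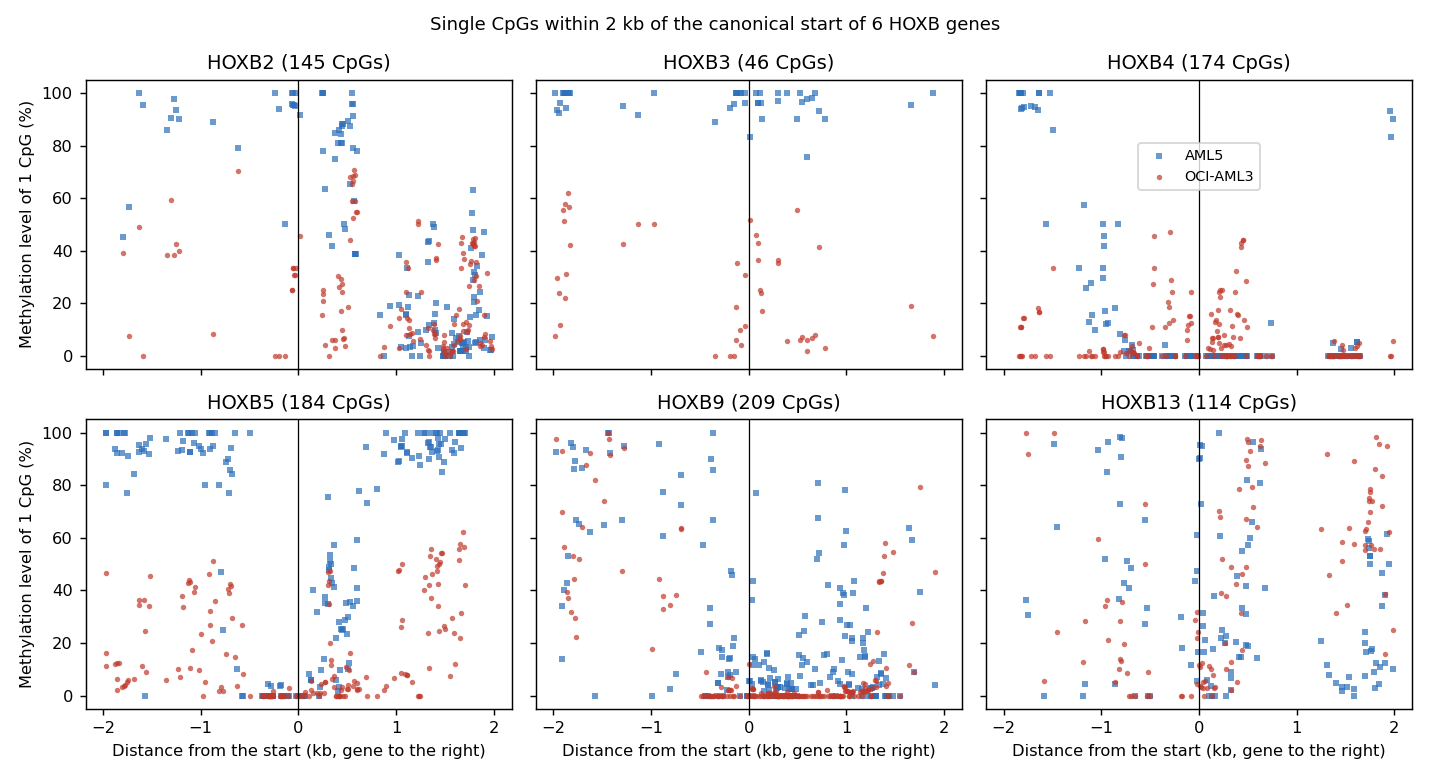
Methylation level (%) of each CpG dinucleotide with more than 5 calls in both lines, against the distance in kb from the canonical start (gene to the right), for HOXB2, HOXB3, HOXB4, HOXB5, HOXB9 and HOXB13. Blue squares are AML5 and red points OCI-AML3, 1 library each. HOXB3 is high in AML5 throughout, HOXB4 and HOXB5 are low at the start in both lines, and HOXB13 is higher in OCI-AML3 downstream.

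The gene bodies, the whole annotated spans, showed more of the hypomethylation than the promoters of the outermost starts. A lower level by at least 20 points was found in 4 of 10, HOXB2, HOXB3, HOXB5 and HOXB6, and a higher one in none, against 6.56% and 0.613% of all protein-coding gene bodies. The median difference was −10.5 points, against −4.97. With canonical transcripts the contrast with promoters was smaller. Then 3 bodies and 2 promoters were lower by at least 20 points, and the medians were −10.3 for bodies and −10.0 for promoters. HOXB3 had 28.9% (OCI-AML3) and 70.5% (AML5) over 1509 CpG dinucleotides in 56043 bases (chr17:46626232-46682274), of which 839 were lower and 41 higher. HOXB5 had 20.03% and 63.5%, HOXB6 had 36.8% and 60.2%, and HOXB2 had 21.1% and 42.5%. The HOXB2 body fell short of 20 points over the canonical transcript (−8.93) and by the share of all calls (−15.5). It also did so with at least 10 calls in both lines (−19.7). It passed without its first 2 kb (−38.8) and with at least 1 call (−22.9). The HOXB3 span shares CpG dinucleotides with HOXB5 and with HOXB6, so its decrease is not independent of theirs. The HOXB2 span overlaps none of the other spans with a decrease.

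Annotated members overlap, since the HOXB3 span holds HOXB4, HOXB5 and nearly all of HOXB6, and the HOXB7 span holds HOXB8 and HOXB9. Without the bases of other members, the 41514 bases of HOXB3 had 30.1% and 80.7%, and 625 of 987 CpG dinucleotides (63.3%) were lower and 4 higher. The levels of the remaining bodies were 76.2% and 85.4% for HOXB1, 5.78% and 17.2% for HOXB4, 31.0% and 38.0% for HOXB7, 10.1% and 19.7% for HOXB8, and 30.7% and 33.2% for HOXB9. HOXB13 had 46.3% in OCI-AML3 and 30.3% in AML5, with 54 of 139 CpG dinucleotides higher and 15 lower.

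Coding exons and introns of the canonical transcripts differed within several members. The coding exons of HOXB3 were methylated in both lines (86.6% and 95.7%), whereas its introns had 21.4% and 71.9%, with 548 of 867 CpG dinucleotides lower and 10 higher. The canonical HOXB3 span holds HOXB4, so these intron values include CpG dinucleotides of that gene. All 21 CpG dinucleotides of the HOXB5 intron were lower, from 92.8% in AML5 to 16.3% in OCI-AML3, and its coding exons had 18.2% and 50.9%. The coding exons of HOXB4 had 7.79% in OCI-AML3 and 0.266% in AML5. In HOXB13 the coding exons had 61.1% and 36.4%, and the intron 58.6% and 8.80%, with 12 of 13 CpG dinucleotides higher. HOXB5 and HOXB13 thus stood at opposite ends in both kinds of sequence.

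The CpG islands of the interval, found on the genome sequence, fell into separate kinds. Of 37 islands, 11 (29.7%) were lower by at least 20 points in OCI-AML3 and 3 (8.11%) were higher, against 7.53% and 3.09% of all autosomal islands. A level below 20% was found for 18 islands in OCI-AML3 and 7 in AML5, with 6 low in both lines (30.2% of all autosomal islands were), while 5 in OCI-AML3 and 12 in AML5 were above 80%. The island at chr17:46658903-46660112, within HOXB3, had 8.18% and 91.3%, with 92 of 93 CpG dinucleotides lower. Another at chr17:46673163-46674329, within HOXB6, had 14.2% and 94.99%, with all 63 lower. The islands that hold a canonical start differed less than these extremes. They had 21.5% and 30.9% at HOXB2, 9.48% and 1.25% at HOXB4, and 7.30% and 28.2% at HOXB5. The others had 3.11% and 19.4% at HOXB7, 3.65% and 15.2% at HOXB9, and 27.7% and 33.5% at HOXB13. Of the start islands, that of HOXB5 passed 20 points, and the median difference over all 37 islands was −9.35. The canonical starts of HOXB1, HOXB3, HOXB6 and HOXB8 lay in no island. The 3 islands that were higher in OCI-AML3 lay between HOXB9 and HOXB13 (72.3% and 43.5%, and 67.2% and 44.2%) and in HOXB13 (66.3% and 25.3%). When the islands were divided at HOXB9, a division chosen after the values were seen, all 11 decreases were among the 25 on the HOXB1 side and all 3 increases among the other 12. Outside islands the level was 52.7% and 73.8%, a difference of −21.2, against −13.8 within them.

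Along the interval, 64 of 190 measured bins of 1 kb (33.7%) were lower by at least 20 points and 10 (5.26%) were higher, against 18.4% and 2.85% of autosomal bins. The decreases formed runs of neighbouring measured bins. Here and below, a run may pass over bins with too few CpG dinucleotides to be measured. The longest, chr17:46639001-46654000 within HOXB3, had 14.1% (OCI-AML3) and 93.9% (AML5) over 280 CpG dinucleotides, of which 269 were lower and none higher. It ended inside HOXB4. The last 844 bases of HOXB4, more than 2 kb from its start, had 1.22% and 92.2%, and all 18 tested CpG dinucleotides there were lower. Nearer the start, the bin chr17:46654001-46655000 had 0.688% and 0.986%, and decreases began again at chr17:46657001-46661000 with 7.83% and 92.4%. In AML5 the unmethylated HOXB4 start thus stood between methylated stretches, while in OCI-AML3 the stretch was low on both sides. A run of 4 bins across the HOXB2 start and upstream of it, chr17:46622001-46626000, had 25.1% and 88.4%. A run of 3 bins from upstream of HOXB5 into HOXB6, chr17:46672001-46675000, had 14.4% and 85.5%.

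The 5 bins with the largest decrease had differences from −94.7 to −87.8 points and lay between positions 46646001 and 46658000. The 5 with the largest increase, from 34.8 to 45.1 points, lay between HOXB9 and HOXB13 or in HOXB13. The 8 stretches measured between neighbouring members all had a lower level in OCI-AML3, by amounts that differed along the cluster. They are not free of genes. The HOXB3 span covers that between HOXB4 and HOXB5 and that between HOXB5 and HOXB6. The HOXB7 span covers those between HOXB7, HOXB8 and HOXB9 and reaches into that between HOXB9 and HOXB13. The HOXB2 span reaches into that between HOXB1 and HOXB2. Between HOXB4 and HOXB5 the levels were 7.12% and 62.4%, with 231 of 332 CpG dinucleotides lower and 3 higher. Between HOXB7 and HOXB8 they were 4.96% and 24.6%, between HOXB8 and HOXB9 they were 35.5% and 38.3%, and between HOXB9 and HOXB13 they were 57.1% and 57.9%. The stretch between HOXB6 and HOXB7 was methylated in both lines, 84.0% and 90.2%.

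Of 8 other genes listed for the interval, 7 were found in the annotation. The promoter of HOXB-AS2, an antisense RNA gene within HOXB3, had 34.5% in OCI-AML3 and 92.4% in AML5, and that of HOXB-AS1, which starts within HOXB2, 21.6% and 43.996%. These 2 passed 20 points, against 12.3% of the promoters of all annotated genes, and no promoter of the 7 was higher by as much (1.92% of all were). HOXB-AS3, whose span covers HOXB3 on the other strand, had 75.3% and 94.8%, HOXB-AS4 had 46.7% and 63.5%, and MIR196A1, a microRNA gene between HOXB9 and HOXB13, had 54.0% and 61.3%. PRAC1 and PRAC2, small genes beside HOXB13 that are known from prostate and colon, had 40.8% and 29.8% (37 of 109 CpG dinucleotides higher, 22 lower) and 34.7% and 26.1% (38 of 130 higher, 24 lower). All of these windows but that of PRAC1 overlap the window or body of a member, so their values are not independent of it.

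The HOX clusters differed in direction. With canonical starts, the median promoter difference was −10.0 points over the 10 HOXB genes, −14.7 over 11 HOXA genes, 6.42 over 9 HOXC genes and 19.9 over 9 HOXD genes, against −4.64 over all protein-coding genes. At least 20 points lower were 2 HOXB genes (HOXB3 and HOXB5), 5 HOXA genes and no HOXC or HOXD gene, against 8.72% of all genes. At least 20 points higher were no HOXB gene, 1 HOXA gene, 1 HOXC gene and 4 HOXD genes, against 1.83%. The canonical windows of HOXB3 and HOXB5 overlap at their edge. With outermost starts the medians were −6.83 (HOXB), −20.4 (HOXA), 6.42 (HOXC) and 20.8 (HOXD), against −4.68 over all genes. Then 1 HOXB gene and 6 HOXA genes were at least 20 points lower, against 8.61% of all genes. At least 20 points higher were 1 HOXA gene, 1 HOXC gene and 5 HOXD genes, against 1.79%. With 1 library per line the difference between clusters was not tested.

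**Figure D4:**
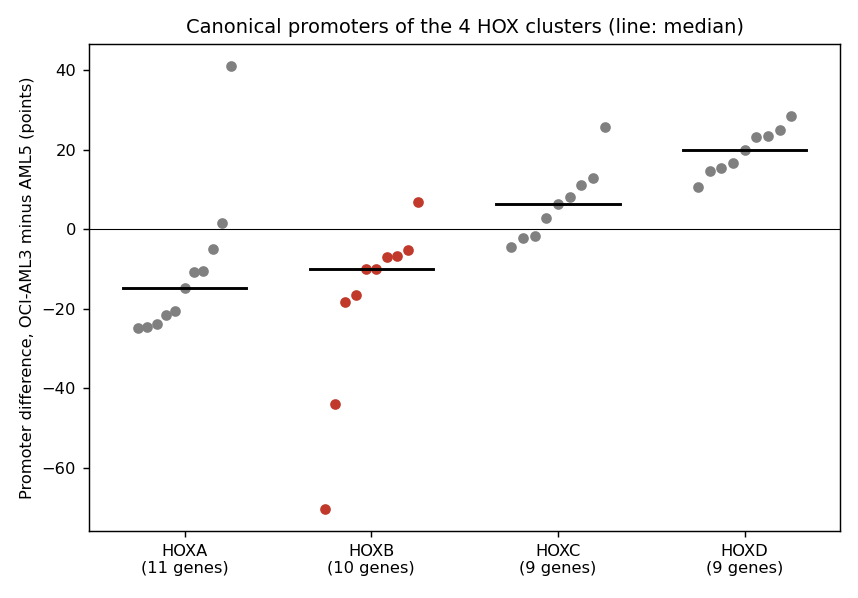
Difference in promoter methylation (OCI-AML3 minus AML5, percentage points) within 2 kb of the canonical start for each gene of the 4 HOX clusters. Red points are HOXB genes, grey points genes of the other clusters, and lines are medians. HOXB3 is the lowest point of the plot at −70.4, 9 of the 10 HOXB genes are below 0, and all 9 HOXD genes are above 0.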

How the data were processed

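Whole-genome bisulfite sequencing gave 1 library for each of the 2 lines. Per the labels, genomic DNA with unmethylated lambda DNA was sheared, ligated to adapters, converted with bisulfite and sequenced in pairs, and the submitters' processing notes name Bowtie 0.12.8, Bismark and hg19. The authors deposited, for each CpG dinucleotide, counts of methylated and unmethylated calls. Whether duplicate reads were removed is not given in the sources used here, and bisulfite does not separate methylcytosine from hydroxymethylcytosine. Column meaning was checked on mitochondrial DNA, where 0.168% and 0.101% of calls were methylated, and all 26752702 autosomal positions, moved from the G to the C, fell on CG in GRCh37.

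CpG dinucleotides with more than 5 calls in both lines were kept (24454751). Counts were compared with Fisher's exact test, adjusted by Benjamini-Hochberg over all of these, and the script was tested on simulated data. Gene windows and islands needed 10 CpG dinucleotides, and bins of 1 kb needed 5. Islands were merged windows of 500 bases with GC of at least 55% and observed to expected CpG of at least 0.65. Genes and canonical transcripts came from GENCODE on GRCh37. Differences of at least 20 points were called, with no test between lines. Wilson intervals (95%) treat each call as independent and cover counting error only. An intermediate level cannot tell a mixture of cells from a difference between alleles.

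All 10 members are named. Other genes of the interval and the sequences followed written rules (the bins with the largest decrease and increase, and the members with the largest and smallest promoter difference), and the members and lists were chosen with earlier results of these data known. MIR10A did not match an annotated gene name and is not analysed here, and some of the sequences chosen by rule are not reported here. Windows of 500 bases around every annotated start were added for description. The scripts ran in Python 3.11.15 with scipy 1.17.1, numba 0.67.0, pysam 0.24.0, numpy 2.4.6, matplotlib 3.10.9 and pandas 2.3.3.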

Additional observations from a re-analysis of the deposited data

How the results depend on the processing

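No paired analysis was possible because each line has 1 library, and no library could be left out. Of 104 alternative values of the counts and medians, 75 stayed within their limits and 29 moved. Most of these are counts, which cannot change sign. Only the medians and the mean over the interval could, and none of them did. For single genes, 57 of 108 stayed, 47 moved and 4 changed sign: the HOXB4 promoter was 5.98 points higher in OCI-AML3 in a window of 1 kb on either side, the HOXB13 promoter had −9.99 there and −19.2 in the 2 kb upstream only, and the HOXB9 body without its first 2 kb was 10.7 points higher. HOXB2, HOXB3 and HOXB7 promoters depended on the window or start used, as given above. The cause was not tested.

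With the share of all calls in place of the mean over CpG dinucleotides, 1 gene body was higher, the median body difference was −12.9 and the difference over the interval −18.1. With 10 points in place of 20, 3 promoters were lower, 1 body and 19 bins were higher, and 18 islands were lower and 6 higher. With 30 points, 2 bodies and 41 bins were lower and 1 island was higher. With canonical starts, 2 promoters were lower and the median was −10.0. In windows of 1 kb on either side, 2 promoters were lower, the median was −11.1, and 217 CpG dinucleotides were lower and 38 higher. In the 2 kb upstream only, 2 promoters were lower, the median was −12.7, and 161 CpG dinucleotides were lower and 27 higher. Without the first 2 kb, the median body difference was −19.97. That median leaves out HOXB1 and HOXB5, which then had 6 and 2 tested CpG dinucleotides, below the 10 needed. Bins of 500 bases gave 22 increases, and 42 bins were lower where 10 CpG dinucleotides were needed. A looser island rule gave 29 decreases and 5 increases. With at least 10 calls in both lines, the medians were −5.75 for promoters and −11.8 for bodies, and the interval had −16.8.

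At the median depths of 27 and 30 calls, small differences at a single CpG dinucleotide were not detectable, and the number of calls, which was larger in OCI-AML3 over this interval, limits each count.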

Other observations

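The space between HOXB9 and HOXB13, 98404 bases that hold the far end of the HOXB7 span but no other HOXB gene, had almost the same mean level in both lines, 57.1% in OCI-AML3 and 57.9% in AML5. Yet 256 of its 1610 tested CpG dinucleotides (15.9%) were lower in OCI-AML3 and 240 (14.9%) higher by Fisher's exact test. The like means thus hold changes in both directions. The lower share was near that of the genome (14.7%), and the higher share was above it (3.86%). Of the increases, 76 lay in a run of bins at chr17:46719001-46724000, with 71.5% and 43.3%, and 45 in another at chr17:46797001-46800000, with 77.7% and 43.2%, which covers the PRAC1 gene (81.3% and 49.4%). The others lay elsewhere in this space.

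Single CpG dinucleotides of the interval were spread over all levels. In AML5, 49.4% were above 80% and 28.4% below 20%, whereas in OCI-AML3 26.9% were above 80% and 42.8% below 20%. A change from above 80% in OCI-AML3 to below 20% in AML5 was found at 56 CpG dinucleotides of the interval, against 588 in the opposite direction (0.499% and 2.6% of all tested).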
